A study of Mus musculus with 2 samples.

Results

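Nonproductive heavy chain rearrangements are V-D-J joins that cannot be read through into an antibody heavy chain. Here they were taken as the assembled heavy chain (IGH) contigs that carried a V gene and a J gene and were not flagged productive. Of the 22408 contigs in the study, 7951 were IGH and 6708 of those were productive. The rearrangements described here were 631 contigs in 627 cell barcodes, 354 in the Cre+ library and 277 in the Cre- library. They made up 8.97% of the joined IGH contigs in Cre+ (exact 95% interval 8.09 to 9.90) and 8.17% in Cre- (7.27 to 9.14), where joined contigs are these plus the productive ones. The other 612 IGH contigs that were not productive were left out, 582 because no V gene was called and 30 because a V gene but no J gene was called.

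B cell receptor transcripts were read from CD45+ cells of mouse Peyer's patches, lymphoid follicles of the small intestine, after enrichment on magnetic beads and capture in droplets. The Cre+ library came from adult female H2-Ab1 fl/fl; Villin:Cre+ mice, in which the Villin promoter drives Cre recombinase in the gut epithelium and the floxed gene codes for an MHC class II beta chain. The Cre- library came from adult female H2-Ab1 fl/fl; Villin:Cre- mice, which carry the floxed gene and no recombinase. Each of the 2 libraries pooled cells of 4 mice, so the spread between animals is unknown, no test between genotypes was made, and every interval is an exact 95% interval for counting error alone. The design text of the series gives Cre- as the genotype of either group, which goes against the sample labels used here, and H2-Ab1 was not measured in these tables. Gene expression was not used here, so the B cell identity of a barcode rests on its receptor: a productive light chain lay in the barcode of 483 of the 488 nonproductive contigs with a productive heavy chain partner and of 138 of the 143 without a partner. The libraries held 3748 and 3245 barcodes with 79573 and 84658 heavy chain unique molecular identifiers (UMIs, a count of captured transcripts), and the nonproductive contigs took 1.70% of these UMIs. The libraries had 10 barcodes in common, and 0 of the contigs described here lay in them.

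A developing B cell joins a D to a J segment on both heavy chain alleles and then a V to DJ on one allele; if that join is out of frame or holds a stop codon, the other allele is tried. A mature B cell can therefore carry a failed join beside the productive one. The failed join makes no receptor, so it is not chosen for what it binds. Its transcript is subject to nonsense-mediated decay, and its allele can still undergo class switching and somatic hypermutation.

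The contigs fell into 4 kinds by how they were listed, and the CDR3 sequences printed below show how failed joins were listed. The term failed join is used for all 631 contigs, among them 241 for which the productive flag gives no verdict. For those, whether the join failed cannot be told from the flag. The CDR3 is the junction around V, D and J, which runs from the conserved cysteine codon to the conserved tryptophan codon. In some failed joins the listed CDR3 began at an earlier TGT or TGC. In 185 contigs the listed CDR3 held a stop codon, in 204 it held none, in 199 no CDR3 was listed, and 43 contigs were not full length. The shares in Cre+ and Cre- were 31.9% and 26.0% for a CDR3 with a stop, 33.1% and 31.4% for a CDR3 without a stop, 27.1% and 37.2% for no CDR3, and 7.91% and 5.42% for contigs that were not full length. The sequences printed here are the CDR3 with the most UMIs for 5 V genes among those most enriched or most used in failed joins. They had 7, 6, 7, 6 and 4 UMIs in the order shown, and capitals mark the stop codons read in the frame of the listed CDR3.
IGHV2-2, Cre+: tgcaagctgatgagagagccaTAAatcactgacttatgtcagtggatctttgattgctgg
IGHV5-2, Cre-: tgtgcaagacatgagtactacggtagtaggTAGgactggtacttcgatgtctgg
IGHV3-1, Cre-: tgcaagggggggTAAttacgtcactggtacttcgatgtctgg
IGHV12-3, Cre+: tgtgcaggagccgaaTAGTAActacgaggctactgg
IGHV8-2, Cre+: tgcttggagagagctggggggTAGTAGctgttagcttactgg
The IGHV12-3 and IGHV8-2 joins each held 2 stop codons and the others held 1. The V gene's own CDR3 start was located at the first base of the IGHV5-2 and IGHV12-3 sequences. It was not located in the IGHV2-2, IGHV3-1 and IGHV8-2 sequences, so their stop codons may lie in V sequence ahead of the junction.

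In a second set the CDR3 had no stop codon, and capitals mark the first 6 bases of the V gene's own CDR3 start, which lie out of frame with the listed CDR3; these contigs had 5, 4 and 6 UMIs.
IGHV2-2, Cre-: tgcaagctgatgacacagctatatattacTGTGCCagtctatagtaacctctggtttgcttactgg
IGHV5-2, Cre-: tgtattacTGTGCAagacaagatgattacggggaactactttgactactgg
IGHV12-3, Cre+: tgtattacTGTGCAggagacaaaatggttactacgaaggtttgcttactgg
Counted from 1 at the first base of the listed CDR3, that V gene start lay at position 30 in the IGHV2-2 join and at position 9 in the IGHV5-2 and IGHV12-3 joins. In these contigs the listed CDR3 began at an earlier TGT or TGC in the frame of the J gene, so the V gene and the J gene were read in different frames.

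Most failed joins with a CDR3 were out of frame between V and J. The V gene's usual CDR3 start, taken from productive contigs of the same gene, was looked for in the 389 full-length contigs with a CDR3. Where its first 6 bases were not found, a CDR3 that began with 5 bases from inside that start was also counted as out of frame. By these rules the join was out of frame in 234 (60.2%, 55.1 to 65.0) and in frame in 85 (21.9%, 17.8 to 26.3). The start was not found in 54, and 16 used a V gene with no productive contig to compare. The share out of frame was 61.7% in Cre+ and 57.9% in Cre-, with intervals that overlap. Of the CDR3s with a stop codon 57 of 185 were in frame and 100 out of frame; of those without a stop 28 of 204 were in frame and 134 out of frame. The same search in the 6708 productive contigs put the V gene start in frame in 6253 (93.2%) and out of frame in 3. The contigs that were not full length were of another kind: 26 of the 35 with a CDR3 were in frame, and whether such a contig codes for a whole chain cannot be told from the tables. The productive flag was False for 390 of the 631 contigs and None, with no verdict, for 241.

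V gene use was where the failed joins differed most from the productive ones. IGHV1, the largest mouse V family, took 38.4% of nonproductive and 61.5% of productive contigs in Cre+ (difference -23.1 points, -28.4 to -17.5) and 34.3% against 53.5% in Cre- (-19.2 points, -25.1 to -13.1). IGHV2 took 16.1% against 4.06% in Cre+ (12.04 points higher, 8.30 to 16.3) and 10.5% against 4.01% in Cre- (6.46 points, 3.03 to 10.7). IGHV3 took 9.32% against 4.31% and 8.30% against 4.37%, with both intervals of the difference above 0. IGHV12 took 3.39% and 3.25% of failed joins and 0.0278% and 0.0321% of productive ones. IGHV11 was also higher in failed joins in both libraries, at 0.847% against 0.0557% and 1.44% against 0.0321%. The IGHV2, IGHV3, IGHV11 and IGHV12 families were thus over-represented, and IGHV1 under-represented, in both libraries.

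For other families the interval held 0 in 1 or both libraries. IGHV8 took 6.50% against 4.20% in Cre+, with an interval of -0.144 to 5.45 points, and 10.1% against 3.08% in Cre- (7.02 points, 3.67 to 11.2). IGHV7 was 3.04 points higher in Cre+ (1.15 to 5.72) and 0.785 points higher in Cre- (-0.662 to 3.30). IGHV14 was -2.29 points from the productive share in Cre+ (-3.34 to -0.464) and 0.142 points in Cre- (-1.85 to 3.13). IGHV9 was -2.39 points in Cre+ (-3.87 to -0.142) and 1.10 points in Cre- (-1.19 to 4.36). IGHV13 and IGHV15 each had an interval above 0 in only 1 of the libraries, IGHV13 in Cre+ and IGHV15 in Cre-. The intervals for IGHV6, IGHV10 and IGHV16 held 0 in both. Over both libraries pooled, the intervals lay above 0 for IGHV8 (2.34 to 6.85 points), IGHV7 (0.755 to 3.78), IGHV13 (0.294 to 2.46) and IGHV15 (0.104 to 1.56), each higher in failed joins in both libraries. Against all productive contigs, the differences in IGHV9 and IGHV14 had opposite signs in the libraries. Without the largest productive rearrangement of each library, IGHV14 was lower in both. It was -2.36 points in Cre+ (-3.42 to -0.527) and -0.399 points in Cre- (-2.43 to 2.61). On that reference IGHV9 still differed in sign, at -2.48 and 0.536 points.

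IGHV4 and IGHV5 depended on a single expanded productive rearrangement in each library. An IGHV4-1/IGHJ3 rearrangement filled 420 barcodes of Cre-, and an IGHV5-17/IGHJ4 rearrangement filled 77 barcodes of Cre+. Against all productive contigs, IGHV4 was 3.46 points higher in failed joins of Cre+ (1.58 to 6.13) and differed by -10.6 points in Cre- (-12.8 to -7.42). With those rearrangements left out, it was higher in both, at 4.25% against 0.796% in Cre+ and 3.61% against 0.817% in Cre- (2.79 points, 0.882 to 5.74). IGHV5 was -2.09 points in Cre+ (-4.77 to 1.28) and 3.59 points in Cre- (0.176 to 7.84) against all productive contigs, and both intervals held 0 without them. The single V genes are therefore compared with the 6211 productive contigs that remain without these rearrangements.

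Of 85 V genes with 10 or more contigs, 15 (17.6%) were higher and 12 (14.1%) lower among the failed joins by a rule of size. The rule asked for shares that differ at least 2-fold in one direction, pooled intervals that do not overlap, and the same direction in both libraries; 31.8% of genes passed it. These values chose the genes, and no test is made of them. The 15 higher genes took 43.2% of failed and 4.55% of productive joins in Cre+, and 39.7% and 4.64% in Cre-. The 12 lower genes took 8.76% of failed and 32.6% of productive joins in Cre+, and 7.58% and 34.3% in Cre-. Of the higher genes 5 belonged to IGHV1 and 10 to other families, while 11 of the 12 lower genes belonged to IGHV1, which held 44 of the 85 genes compared. The lone exception among the lower genes was IGHV5-17, with 3 failed and 152 productive joins.

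**Figure D1:**
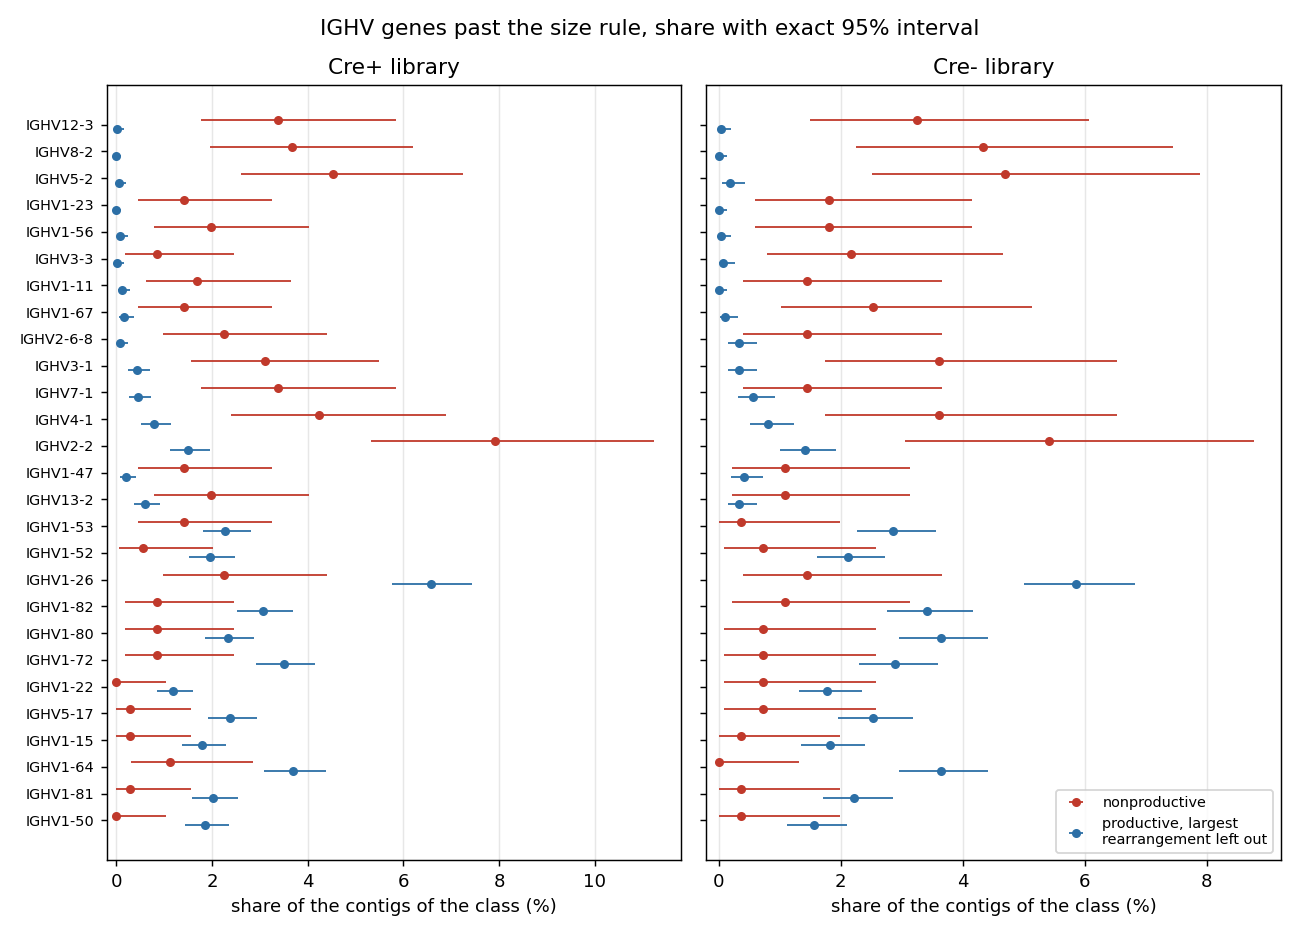
Share of each V gene among nonproductive (red) and productive (blue, largest rearrangement of each library left out) contigs, in percent, for the 27 genes past the rule, with exact 95% intervals; each panel is 1 library. The 15 genes from IGHV12-3 to IGHV13-2 have the red point to the right of the blue one in both panels, with IGHV2-2 reaching 7.91% in Cre+, and the 12 genes from IGHV1-53 to IGHV1-50 have it to the left.

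IGHV12-3 was common among failed joins and rare among productive ones. It made 12 failed joins in Cre+ (3.39%) and 9 in Cre- (3.25%), against 1 productive contig in each library, a ratio of shares of 103 (counting interval 25.3 to 909). Of its 21 failed joins 11 had a stop codon in the CDR3 and 10 had a CDR3 without a stop, and 18 lay beside a productive partner. The gene lies on chromosome 12 from 114366526 to 114366819 (GRCm38.p6, RefSeq). In mice IGHV12-3 is known from B-1 cell receptors that bind phosphatidylcholine, as IGHV11 genes are.

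IGHV8-2 and IGHV5-2 were likewise frequent in failed joins and rare or not seen in productive ones. IGHV8-2 made 13 failed joins in Cre+ (3.67%) and 12 in Cre- (4.33%) and 0 productive ones. Setting that count of 0 to 3 contigs over both libraries gave a ratio of shares of 82.0. This takes the pooled failed share at its point value of 3.96%, whose counting interval was 2.58 to 5.79%. The ratio is therefore not a lower bound for counting error. No CDR3 was listed for 17 of the 25 IGHV8-2 contigs, and 23 lay beside a productive partner. IGHV5-2, the V gene at 148.7 kb from Ighj1, made 16 failed joins in Cre+ (4.52%) and 13 in Cre- (4.69%), against 2 and 5 productive ones (ratio 40.8, 17.5 to 110). It corresponds to the V gene known as VH81X, which fetal and adult precursors rearrange often and mature B cells seldom keep.

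IGHV2-2 was the V gene with the most failed joins. It made 28 of 354 in Cre+ (7.91%) and 15 of 277 in Cre- (5.42%), against 1.51% and 1.41% of the productive joins (ratio 4.65, 3.16 to 6.75). Of its 43 failed joins 42 lay beside a productive partner. The gene lies at chromosome 12, 113588267 to 113588700, 158.4 kb from Ighj1 and next to IGHV5-2 at 113578504 to 113578990, both close to the D and J segments. The 2 genes nearest the J segments in this list were thus the first and the second in number of failed joins.

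IGHV4-1, IGHV3-1, IGHV7-1 and IGHV3-6 were also among the 10 V genes with the most failed joins. IGHV4-1 made 15 and 10 failed joins, 4.24% and 3.61%, against 0.796% and 0.817% of productive ones (ratio 4.92, 2.92 to 8.11). IGHV3-1 made 11 and 10, against 15 and 9 productive contigs (ratio 8.61, 4.56 to 16.1). IGHV7-1, which RefSeq types as a pseudogene segment, made 12 and 4 failed joins and also 16 and 15 productive ones (ratio 5.08, 2.60 to 9.58). IGHV3-6 made 16 and 6 failed joins and did not pass the rule: its share was 4.52% against 3.44% in Cre+ and 2.17% against 4.05% in Cre- (pooled ratio 0.941, 0.579 to 1.46).

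Further genes with high ratios were rarer. IGHV1-56 made 7 and 5 failed joins against 3 and 1 productive ones (ratio 29.5, 8.95 to 126). IGHV3-3 made 3 and 6 against 1 and 2 (ratio 29.5, 7.37 to 170). IGHV1-11 made 6 and 4 against 4 and 0 (ratio 24.6, 7.10 to 107). IGHV1-67 made 5 and 7 against 6 and 3, a ratio of 13.1, and IGHV2-6-8 made 8 and 4 against 3 and 9, a ratio of 9.84. All 5 were higher in failed joins in each library.

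At the other end, IGHV1-50 made 0 failed joins in Cre+ and 1 in Cre-, against 65 and 42 productive ones, a ratio of 0.0920 with a counting interval of 0.00231 to 0.524. IGHV1-26, the most used V gene of the productive repertoire apart from the expanded rearrangements, took 6.57% and 5.86% of productive joins but 2.26% and 1.44% of failed ones (ratio 0.304, 0.155 to 0.536). IGHV1-64 made 4 failed joins in Cre+ and 0 in Cre- against 130 and 98 productive ones. Just outside the rule on the higher side were IGHV1-49, with 6 failed and 7 productive joins, and IGHV5-15, with 4 and 6. On the lower side the next were IGHV1-78, with 1 and 68, and IGHV1-58, with 1 and 37.

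Some V genes appeared among failed joins alone. Of the 105 V genes in either class 90 were in both, 8 were found only in productive and 7 only in nonproductive contigs, which held 48 contigs. Those with 3 or more contigs were IGHV8-2, IGHV1-23 with 5 in each library, IGHV8-11 with 2 in Cre+ and 3 in Cre-, and IGHV1-62-1 with 3 in Cre+ alone. IGHV1-23, at 10 failed joins, had a ratio of 32.8 with its productive count of 0 set to 3 contigs. That ratio too takes the failed share at its point value, 1.59% (0.763 to 2.90), and is not a lower bound. IGHV1-23 no longer passed the rule with 3 or more UMIs or with exactly 1 productive heavy chain. It also failed the rule with IGHM or IGHD contigs alone and with flag False alone.

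Across the 85 V genes, the shares in failed joins of Cre+ and Cre- correlated at Pearson r = 0.764 and Spearman rho = 0.513. The productive shares of both libraries correlated at r = 0.956 and rho = 0.951. Failed and productive shares of the same library correlated at r = 0.0569 and rho = -0.0301 in Cre+ and at r = -0.0409 and rho = -0.0248 in Cre-. These describe genes, which are not independent replicates, and many genes hold only a few failed joins. The shares in failed joins were thus closer to those of the other library than to the productive shares of the same library.

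The failed joins used V genes nearer to the D and J segments. The heavy chain locus lies on chromosome 12, where Ighj1 starts at 113429781 and the V genes extend away from it (GRCm38.p6). The median distance of the V gene from Ighj1 was 937 kb (870 to 1032) in failed joins of Cre+ and 962 kb (858 to 1032) in Cre-, against 1359 kb in productive joins of both without the expanded rearrangements, the reference in this paragraph (1253 kb in Cre- with all productive contigs). V genes within 500 kb made 26.8% (22.3 to 31.8) of failed joins in Cre+ and 22.0% (17.3 to 27.4) in Cre-, against 12.1% (11.0 to 13.2) and 12.7% (11.5 to 14.1) of productive ones. In the first 250 kb, which holds IGHV5-2 and IGHV2-2, the shares were 17.2% and 12.6% against 4.89% and 4.71%. Over both libraries, IGHV2-2 made 43 and IGHV5-2 made 29 of the 96 failed joins there. They made 91 and 7 of the 299 productive ones, so the excess in this bin came largely from these genes. From 2250 to 2500 kb, where IGHV1-72, IGHV1-80 and IGHV1-81 lie, failed joins had 7.06% and 6.50% and productive joins 14.96% and 15.9%. Intervals were apart in both of these bins in both libraries.

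**Figure D2:**
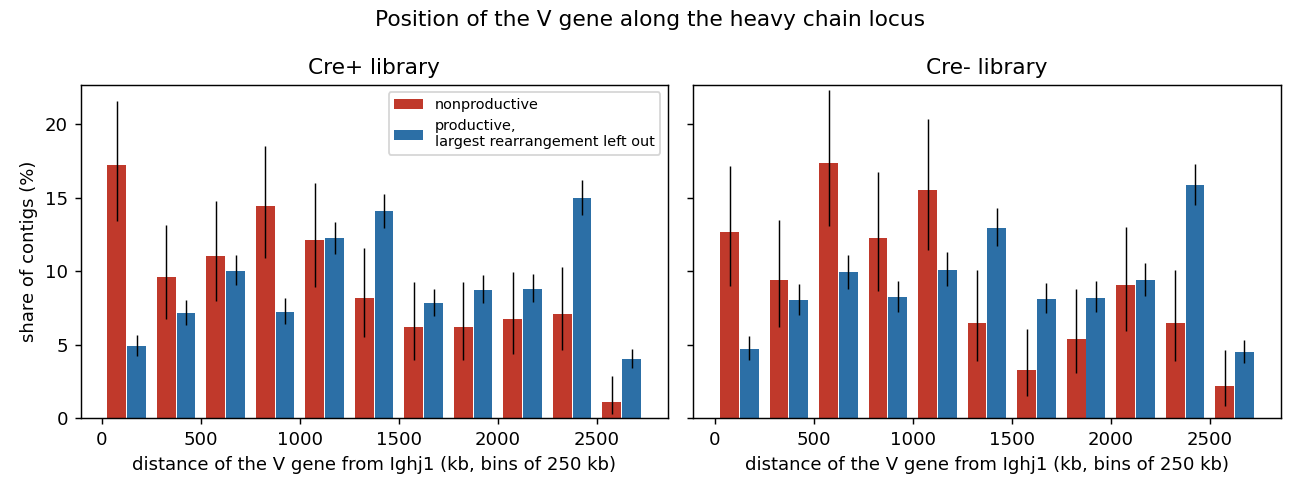
Share of nonproductive (red) and productive (blue, largest rearrangement of each library left out) contigs by the distance of their V gene from Ighj1, in bins of 250 kb, with exact 95% intervals as lines. Red bars exceed blue ones in the bins up to 1000 kb in both libraries, and blue bars exceed red ones from 1250 kb to the end of the locus.

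J genes differed less than V genes, and the differences in IGHJ1, IGHJ3 and IGHJ4 had intervals apart from 0 in both libraries once the expanded rearrangements were left out. Among failed joins IGHJ2 was most used, at 42.1% in Cre+ and 36.8% in Cre-, followed by IGHJ3 at 29.7% and 32.1%, IGHJ4 at 18.1% and 17.7%, and IGHJ1 at 10.2% and 13.4%. Against productive contigs without the expanded rearrangements, IGHJ3 was 7.51 points higher in Cre+ (2.58 to 12.8) and 10.6 points higher in Cre- (4.95 to 16.7). With them included the IGHJ3 difference was 7.90 points in Cre+ and 0.049 points in Cre-, where the expanded IGHV4-1 rearrangement uses IGHJ3. IGHJ1 was -7.12 points in Cre+ (-10.3 to -3.27) and -5.31 points in Cre- (-9.38 to -0.507), and IGHJ4 was -5.53 points (-9.66 to -0.888) and -6.92 points (-11.5 to -1.65). The IGHJ2 differences of 5.13 and 1.60 points had intervals that held 0, whereas against all productive contigs they were 6.09 points (0.648 to 11.7) and 6.35 points (0.421 to 12.5).

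**Figure D3:**
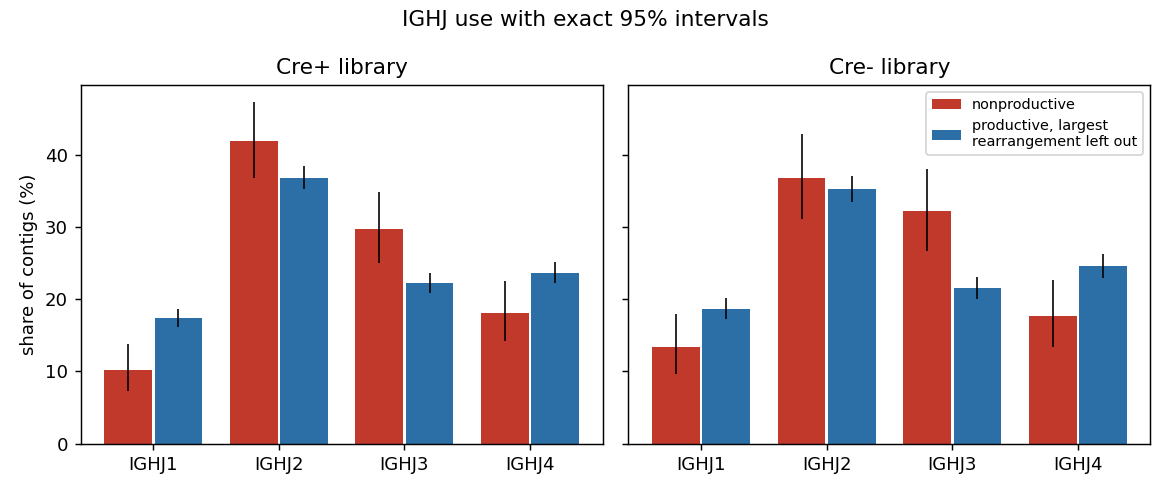
Share of each IGHJ gene among nonproductive (red) and productive (blue, largest rearrangement of each library left out) contigs, in percent, with exact 95% intervals; 1 nonproductive contig of Cre+, whose partner with the most UMIs is that rearrangement, is left out too. In both panels the red bar is higher for IGHJ3, at 29.8% and 32.1%, and lower for IGHJ1 and IGHJ4.

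D segment use differed less than V gene use, with IGHD4-1 rarer in failed joins of Cre+. A D segment was called in 92.4% of failed and 89.7% of productive joins in Cre+ and in 90.3% and 92.5% in Cre-, with intervals of the difference that held 0. IGHD1-1 (a D segment, not the IgD constant gene IGHD) led with 220 failed joins, followed by IGHD2-4 with 85, IGHD2-3 with 64, IGHD2-6 with 52 and IGHD4-1 with 44. IGHD1-1 made 38.5% of called D segments in failed joins of Cre+ and 37.6% in Cre-, against 36.2% and 35.5% in productive joins without the expanded rearrangements. Against all productive joins of Cre- it was 7.29 points higher (1.02 to 13.8). IGHD4-1, the D segment next to the J genes, made 7.65% against 12.8% in Cre+ (-5.13 points, -8.03 to -1.51). In Cre- it made 7.60% of failed joins against 23.8% of all productive ones, and against 10.7% without the expanded rearrangement (-3.13 points, -6.36 to 1.06). Among these 5 segments, the interval without the expanded rearrangements excluded 0 for IGHD4-1 in Cre+ alone.

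Most failed joins lay in a barcode that also held a productive heavy chain. A productive partner was present for 264 of 354 in Cre+ (74.6%, 69.7 to 79.0) and 224 of 277 in Cre- (80.9%, 75.7 to 85.3). Among full-length contigs the shares were 79.1% and 85.1%, while only 6 of 28 and 1 of 15 contigs that were not full length had a partner. Exactly 1 productive partner was found for 251 and 220 contigs, 2 for 12 and 4, and 3 for 1 and 0. Barcodes that held 2 of these failed joins numbered 3 and 1.

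The failed join and its partner were different rearrangements. The V gene was the same in 0 of 251 pairs in Cre+ and 1 of 220 in Cre-, against 1.76 and 1.89 pairs given by the product of the gene shares in each class. The J gene was the same in 25.5% and 26.4% of pairs, against 26.9% and 28.5% from the shares, and the D segment in 24.0% and 23.0%, against 19.6% and 19.8%. For J and D these products lay within the counting intervals of the observed shares.

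The failed join and its partner carried the same kind of constant region in nearly all pairs. Whether both contigs of a barcode come from 1 cell was not tested, since no doublet caller was run. A constant gene was called for 330 failed joins in Cre+ and 260 in Cre-. IGHM, the constant gene of IgM, was on 199 (60.3%) and 164 (63.1%), IGHD, that of IgD, on 81 (24.5%) and 56 (21.5%), IGHA, that of the secreted gut antibody IgA, on 25 (7.58%) and 17 (6.54%), IGHG2B on 12 (3.64%) and 21 (8.08%), IGHG1 on 11 and 1, IGHG3 on 1 and 1, and IGHG2C on 1 and 0. Failed join and partner were both unswitched (IGHM or IGHD) or both switched in 237 of 244 pairs in Cre+ (97.1%, 94.2 to 98.8) and 213 of 216 in Cre- (98.6%, 96.0 to 99.7). With an unswitched partner the failed join was unswitched in 209 of 209 and 182 of 184 pairs. With a switched partner it was switched in 28 of 35 (80.0%, 63.1 to 91.6) and 31 of 32 (96.9%, 83.8 to 99.9).

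Where both contigs were switched, their class was often not the same. Among pairs with both switched, the constant gene was the same in 18 of 28 in Cre+ and 17 of 31 in Cre-. Over both libraries 21 pairs had IGHA on both contigs and 13 had IGHG2B on both. In another 13 pairs the failed join carried IGHG2B and the productive partner IGHA, against 2 pairs with IGHA on the failed join and IGHG2B on the partner. IGHG2B lies between IGHM and IGHA in the order of the constant genes along the chromosome. IGHM on the failed join with IGHA on the partner was seen in 4 pairs.

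**Figure D4:**
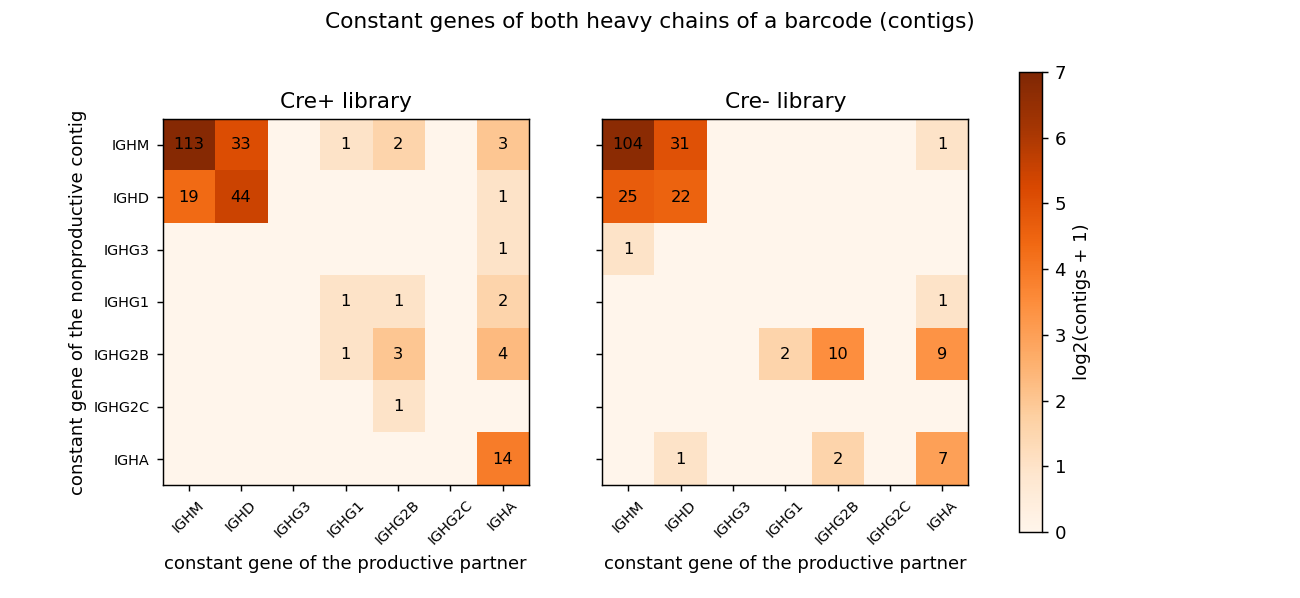
Number of barcodes for each combination of constant genes, with the nonproductive contig in rows and its productive partner in columns; the colour is log2 of the count plus 1, and only pairs with exactly 1 partner and a constant gene called on both are drawn. Counts gather in the corner of IGHM and IGHD (113 IGHM pairs in Cre+ and 104 in Cre-) and in the corner of the switched genes, with few between.

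The switched share of failed joins was 15.2% in Cre+ (11.5 to 19.5) and 15.4% in Cre- (11.2 to 20.4). All productive contigs gave 11.4% and 22.2%, differences of 3.798 points (-0.0501 to 8.25) and -6.85 points (-11.3 to -1.67). The expanded IGHV4-1 rearrangement of Cre- is mostly IgA, and without the expanded rearrangements the productive shares were 9.80% and 10.1%, 5.40 points (1.56 to 9.85) and 5.29 points (0.961 to 10.4) below the failed joins. In Cre+ the contigs that were not full length held 10 of the 50 switched ones, and with full-length contigs alone the difference was 2.78 points (-0.809 to 7.05), and in barcodes with exactly 1 productive heavy chain 1.85 points (-2.03 to 6.66). In Cre- these 2 settings, chosen after seeing the data, gave 5.29 points (0.961 to 10.4) and 5.05 points (0.381 to 10.7). Against all productive contigs, barcodes with exactly 1 productive heavy chain gave 0.334 points in Cre+ (-3.55 to 5.13). Without the expanded rearrangements, IGHG2B was 4.43 points higher in failed than in productive joins of Cre- (lower bound 1.32). In Cre+ it was 0.477 points higher on that reference, with an interval that held 0. On the same reference the IGHD share differed by -5.76 points (-10.6 to -0.530) in Cre+ and -6.95 points (-12.1 to -1.20) in Cre-. Against all productive contigs the IGHD differences were -5.01 points (-9.81 to 0.216) and -3.11 points (-8.19 to 2.60), and both intervals held 0. No constant gene was called for 6.78% and 6.14% of failed joins and for 0.501% and 0.321% of productive contigs.

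Failed joins had fewer captured transcripts than their partners. The median failed join had 3 UMIs in each library (interquartile range 2 to 4) and the median productive contig 8 in Cre+ (5 to 13) and 10 in Cre- (6 to 16). Within a barcode, the failed join had fewer UMIs than its productive partner in 210 of 264 pairs in Cre+ and 181 of 224 in Cre-, the same in 16 and 11, and more in 38 and 32. The median log2 ratio of failed over productive UMIs was -1.21 in Cre+ (-1.32 to -1.0) and -1.29 in Cre- (-1.38 to -1.0), which is 2.31-fold and 2.45-fold lower. Pairs with IGHM on both contigs gave -1.46 and -1.32, and pairs with a switched partner -1.0 over 41 pairs and -0.94 over 32. The 3 full-length kinds were close to each other over both libraries, at -1.32 for a CDR3 with a stop, -1.32 for one without and -1.0 for no CDR3, with overlapping intervals.

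These ratios have a floor in the deposited tables. In all 488 pairs the failed join had at least 0.2 times the UMIs of its partner, 26 pairs lay exactly at 0.2, and 0 failed joins beside a partner had 1 UMI. A failed join of 2 UMIs was listed only beside partners of up to 10 UMIs, one of 3 UMIs beside up to 15, and one of 4 UMIs beside up to 20. Over all 697 barcodes with 2 or more joined heavy chain contigs, the second was below 0.2 times the first in 2. The fold values therefore describe only failed joins above this floor. No source used here names a step that sets it.

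**Figure D5:**
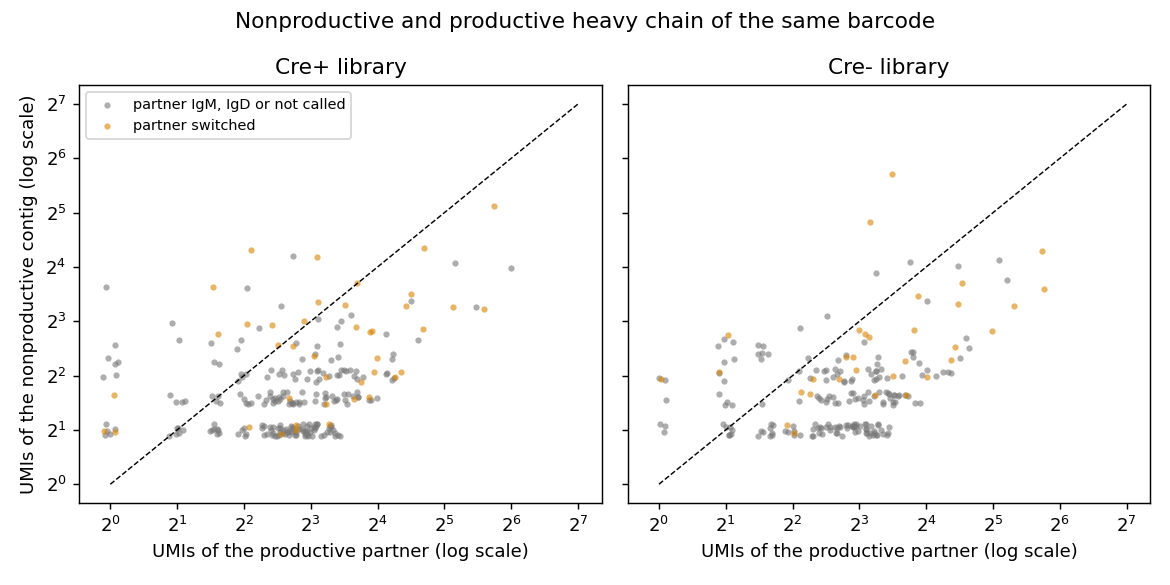
UMIs of the nonproductive contig against UMIs of its productive partner in the same barcode, both on log scales, with a small random offset so that equal points can be seen and the dashed line marking equality; orange points have a switched partner. Most points lie under the line (210 of 264 in Cre+ and 181 of 224 in Cre-), and the empty area at the lower right is bounded by a ratio of 0.2.

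Few nonproductive contigs had many UMIs. Of the 26 with 15 or more UMIs 17 were switched and 12 had no productive partner, but 7 of them were not full length. Of the 19 full-length ones 10 were switched and 7 had no partner. Over all 631 failed joins 90 were switched and 143 had no partner. Among productive contigs, 577 of the 1628 with 15 or more UMIs were switched. The highest were an IGHV14-3/IGHJ2 IgA contig of Cre- with 71 UMIs and no partner, an IGHV1-12/IGHJ3 IgG1 contig of Cre+ with 58 UMIs that was not full length, and an IGHV5-2/IGHJ2 IgG2b contig of Cre- with 50 UMIs beside an IgA partner with 11. The median switched failed join had 7 UMIs in Cre+ and 5 in Cre-. Switched productive contigs had medians of 12 and 16.5, or 13 and 13 without the expanded rearrangements. Switched contigs thus had higher medians than all contigs in both classes. Failed joins were also shorter: the median contig was 666 nucleotides in Cre+ and 667 in Cre-, against 689 and 683 for productive contigs. Full-length failed joins alone had medians of 671 and 669.5. Among IGHM contigs the medians were 677 and 677.5 against 692 and 690. Among switched contigs the gap was smaller, at 601 against 606 in Cre+ and 585 against 592 in Cre-.

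A failed join was found in 249 of 3294 Cre+ cells with exactly 1 productive heavy chain (7.56%, 6.68 to 8.52) and in 219 of 2947 Cre- cells (7.43%, 6.51 to 8.44). The share was highest where the productive chain had few UMIs: 9.89% and 13.4% at 1 to 3 UMIs, 9.54% and 10.2% at 4 to 7, 6.84% and 7.24% at 8 to 15, 4.12% and 2.50% at 16 to 31, and 3.73% and 3.55% at 32 or more. The floor of 0.2 moves with the same UMI count, and its part in this difference was not tested. By class, without the expanded rearrangements, the share was 7.08% and 8.37% in IgM cells, 7.82% and 7.88% in IgD cells, and 16.2% (10.8 to 23.0) and 12.8% (7.75 to 19.4) in IgA cells. Among cells with up to 10 UMIs of the productive chain, where a failed join of 2 UMIs could be listed, it was 9.35% (7.78 to 11.1) and 11.3% (9.37 to 13.6) in IgM cells and 24.0% (13.1 to 38.2) and 18.4% (8.76 to 32.02) in IgA cells. The IgA share was above the IgM share in both libraries, with intervals that were apart in Cre+ and overlapped in Cre-, and cells of 1 lineage are not independent. IgG2b cells gave 7.0% (2.86 to 13.9) in Cre+ and 12.9% (6.85 to 21.5) in Cre-, and among cells with up to 10 UMIs 3.85% (0.469 to 13.2) and 21.1% (9.55 to 37.3), in Cre- no lower than IgA. IgG1 cells gave 3 of 54 and 2 of 22.

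No failed join was found with the expanded rearrangement of Cre-. In its 420 barcodes the IGHV4-1/IGHJ3 rearrangement had 0, which allows a share of up to 0.714% by the limit of 3 counts used for a count of 0, or up to 4.17% in its 72 cells with up to 10 heavy chain UMIs (exact 95% bound 4.99%). In the 77 barcodes of the IGHV5-17/IGHJ4 rearrangement of Cre+ 3 were found, and they were 3 different joins: IGHV1-18/IGHJ1 with IGHD, IGHV1-75/IGHJ2 with IGHD and IGHV2-2/IGHJ3 with IGHA. Only beside 1 of them, IGHV1-75/IGHJ2, was this rearrangement the productive chain ranked first by UMIs. The barcodes of the others held another productive heavy chain that ranked first. Which chain those failed joins belong with cannot be told. Among the 62 Cre+ cells with this rearrangement as their only productive heavy chain 1 carried a failed join (1.61%, 0.0408 to 8.66), beside 7.56% in the library. Cells that share a rearrangement are not independent. The limits in this paragraph therefore count cells only, and they do not bound how often a lineage carries a failed join. No failed join was seen in more than 1 cell of either expanded rearrangement.

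In smaller lineages the same failed V and J genes came back. Cells were joined into a lineage within a library when their productive chains shared V gene, J gene and CDR3 length and their CDR3s were at least 85% identical. Of 180 lineages with 2 or more cells, 7 had failed joins in 2 or more cells, and in 6 of these 7 the failed V and J genes were the same in the cells. The expanded IGHV5-17/IGHJ4 rearrangement of Cre+ is not among these 7. Its 77 barcodes held 3 different failed joins, but it was the productive chain ranked first by UMIs beside only 1 of them. An IGHV1-12/IGHJ2 IgA lineage of Cre+ carried failed IGHV10-1/IGHJ2 joins with IGHA in 3 cells, but the D calls of these differed (IGHD2-4, IGHD2-3 and IGHD1-1) and only 1 had a listed CDR3, so whether they are 1 join cannot be told. In Cre+ an IGHV6-3/IGHJ4 lineage carried IGHV13-2/IGHJ1, and in Cre- an IGHV1-55/IGHJ2 lineage carried IGHV14-2/IGHJ4 and an IGHV1-72/IGHJ2 lineage carried IGHV1-34/IGHJ4; in none of these did 2 cells have a listed failed CDR3 to compare. The exception was an IGHV1-80/IGHJ2 lineage of Cre- with IGHV9-3 in one cell and IGHV1-47 in another. No failed join with a listed CDR3 was shared between the libraries.

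For a pair of lineages in Cre+ the failed CDR3 could be read base by base in 2 cells each, and these sequences show failed joins that differ between cells of a lineage; capitals mark the bases that differ.
IGHV2-3, cell 1: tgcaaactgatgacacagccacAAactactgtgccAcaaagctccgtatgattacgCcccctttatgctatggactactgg
IGHV2-3, cell 2: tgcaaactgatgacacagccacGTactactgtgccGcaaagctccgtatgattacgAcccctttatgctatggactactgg
IGHV1-49, cell 1: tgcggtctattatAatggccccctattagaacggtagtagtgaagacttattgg
IGHV1-49, cell 2: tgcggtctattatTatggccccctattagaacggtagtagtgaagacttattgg
The IGHV2-3 joins differed at 4 of 81 positions, A23G, A24T, A36G and C57A, counted from 1 at the 5′ end of the listed CDR3 with the base of cell 1 first. Their productive partners had the same CDR3 of 57 nucleotides, with 0 differing positions. Cell 1 had IGHM on both contigs, with 17 failed and 65 productive UMIs, and cell 2 had IGHA on both, with 10 and 20. The IGHV1-49 joins differed at 1 of 54 positions, A14T, and the partner CDR3s at 1 of 33. The change in IGHV1-49 lay in a stop codon: the CDR3 of cell 1 was listed with a stop and that of cell 2 without one. Both of its failed joins carried IGHG2B and both partners IGHA. Sequencing error was not measured for these contigs.

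Among contigs with a listed CDR3, the only nonproductive rearrangement seen in 3 or more barcodes was a set of contigs that were not full length. An IGHV1-9/IGHJ2 contig with IGHG1 occurred in 5 barcodes of Cre+, 4 with the CDR3 shown here in full because it is the one repeated sequence; it has no stop codon and so no capitals.
IGHV1-9, Cre+: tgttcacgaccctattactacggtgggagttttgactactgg
Its UMIs were 41, 20, 19, 17 and 12, its length 607 to 612 nucleotides, and 4 of the 5 barcodes had no productive heavy chain. All 5 were above the median of 3 UMIs of the failed joins.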

How the data were processed

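The contig tables are those the authors deposited, made with Cell Ranger on GRCm38 per the submitters' processing notes, the version not given in the sources used here. Per the file headers they hold, for each contig, the count of reads and of UMIs, the length, the gene calls, the CDR3 and the productive flag. The counts were used as deposited, with no normalisation, and every contig was listed as from a called cell; no doublet caller was run. Contigs flagged False or with no productive verdict were pooled. Shares have exact Clopper-Pearson 95% intervals, differences combine both, and medians have order-statistic intervals (Python 3.11.15, pandas 2.3.3, SciPy 1.17.1). V gene positions come from RefSeq's table of GRCm38.p6, where 105 of 105 names matched. Named were all families, J and constant genes, the 10 most used V genes, up to 10 by ratio under the rule in the text, V genes found only in failed joins with 3 or more contigs, 5 D segments and rearrangements in 3 or more barcodes; other names were added after their values were seen. Members, lists and rules were chosen with earlier results of these data known. Alternatives were minimum UMIs of 2 or 3, cells with 1 productive heavy chain, distinct rearrangements, IGHM or IGHD contigs, flag False, full-length contigs, reads for UMIs, the expanded rearrangements in or out, and a ratio of 1.5.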

Additional observations from a re-analysis of the deposited data

Results flagged for a closer look

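The IGHV4 share of failed minus productive joins lay on opposite sides in the libraries, at 3.46 points in Cre+ and -10.6 points in Cre- against all productive contigs. With 1 library for each genotype the difference between genotypes was not tested. Without the largest productive rearrangement of each library the values were 3.45 and 2.79 points.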

How the results depend on the processing

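Over 32 results and 172 alternatives, 149 values stayed within the limits set for a change, 20 moved and 3 reversed; the cause was not tested beyond what each setting leaves out. The reversed ones were the switched share of Cre-, -6.85 points with the largest rearrangement and 5.29 without it, 5.29 without it in full-length contigs and 5.05 without it in barcodes with exactly 1 productive heavy chain, the last 2 settings chosen after seeing the data. Counting 3 or more UMIs gave a nonproductive share of 5.93% in Cre+ and 5.37% in Cre-; flag False alone gave 6.04% and 4.86%; in Cre-, distinct rearrangements gave 9.39% and leaving out the largest one 9.32%. Reads in place of UMIs gave log2 ratios of -1.41 and -1.39. Cells with exactly 1 productive heavy chain gave IGHV1 differences of -32.1 and -26.3 points, an IGHV2 difference of 16.8 points in Cre+ and a length difference of -15.0 nucleotides in Cre+. For IGHV1, flag False gave -28.6 points in Cre+, and in Cre- distinct rearrangements gave -27.5, leaving out the largest -27.6 and IGHM or IGHD contigs -30.9. For IGHJ3 in Cre- the same 3 settings gave 10.6, 10.6 and 13.8 points, and IGHM or IGHD contigs gave -9.48 points for IGHJ4. The count of higher V genes was 12 to 16 and of lower ones 9 to 15; with flag False alone 10 of the 15 higher and 8 of the 12 lower genes remained, the lost higher genes being IGHV8-2, IGHV1-23, IGHV1-47, IGHV13-2 and IGHV3-3, and with the largest rearrangements included IGHV4-1 was lost. No pairing between the genotypes was possible because each genotype had 1 pooled library. Of the 631 contigs, 43 had 1 UMI.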
